A study of Mus musculus with 5 samples.

Results

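The lysosome breaks down what a cell takes up, and the 33 genes described here encode parts of it: the proton pump that acidifies it, proteins of its membrane, enzymes and cofactors of its lumen, and the transcription factor Tfeb. They were taken by gene symbol from a fixed list that leaves out the cathepsins, and all 33 were found among the 56748 genes of the count table. RNA came from CD11b-positive cells of the brain without the cerebellum, from mice that were 7 months old. There were 2 groups and 1 library per mouse. The first group held 2 libraries of 5xFAD mice (replicates 1 and 3), which model Alzheimer's disease and form amyloid plaques in the brain. The other group held 3 libraries (replicates 1, 2 and 3) of 5xFAD/Cd5l tg/wt mice, here called Cd5l-transgenic, which are 5xFAD mice that also carry a transgene for mouse CD5L, a secreted scavenger-receptor-family protein, driven by the human PDGF-B promoter. Both groups thus carry the 5xFAD background, and wild-type mice were not analysed here. The labels do not describe how the CD11b-positive cells were isolated. The title of the series concerns removal of amyloid beta oligomers by phagocytosis, and the comparison made here asks how the lysosomal genes differed between the genotypes.

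Lysosomal enzymes work at acid pH. The vacuolar ATPase (V-ATPase) makes that acid: its cytosolic V1 sector splits ATP, and its membrane-bound V0 sector passes protons into the lumen. In microglia, the brain's resident macrophages, this compartment digests material taken up by phagocytosis. Many genes of the pump, the membrane and the lumen share a promoter element bound by TFEB, known as the CLEAR element, whose core is an E-box.

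The promoters of the members were searched for that core because the results below turn on whether pump and enzyme genes differed alike. The sequences are those of RefSeq on build GRCm38.p6, from 250 bases before to 50 bases after each start site, matched by symbol for 27 of the 33 members. The letters searched were TCACGTG on both strands, which contain the shorter E-box CACGTG. They occurred in 10 of the 27 members (37.0%), against 4.29% of 27025 genes with a promoter in the same table. The 10 were Atp6v0b, Atp6v0d1, Atp6v0e and Atp6v1a of the V-ATPase, the hydrolases Gaa, Glb1, Lgmn and Naglu, and the membrane proteins Lamp1 and Mcoln1. The same 10 held CACGTG, which 8.09% of all genes held. The longer palindrome TCACGTGA stood in Atp6v0d1, Atp6v0e, Atp6v1a and Mcoln1 (14.8% of the 27, against 1.12% of all genes). A still longer form was also searched, which is this palindrome with a G before it and a C after it. It stood in 0 of the 27 members, against 0.37% of all genes. The matches found were thus to the shorter forms only. A match is a description of letters, and binding was not measured.

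Windows of 120 bases from the region before the start site are shown for 5 members: Mcoln1 and Atp6v1a, which were lower in every Cd5l-transgenic library, Glb1 and Naglu, enzymes that were not, and Lamp1, which holds the most copies. The windows run from -120 to -1 in Glb1 and Lamp1, from -128 to -9 in Mcoln1, from -130 to -11 in Naglu and from -188 to -69 in Atp6v1a. Each is written 5′ to 3′ on the strand of the gene, with the matched letters in capitals.
Mcoln1, GRCm38.p6 chr8:3500391-3500510, plus strand: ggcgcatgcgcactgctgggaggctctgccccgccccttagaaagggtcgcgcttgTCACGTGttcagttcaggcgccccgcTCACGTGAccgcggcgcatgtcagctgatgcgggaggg
Atp6v1a, GRCm38.p6 chr16:44139328-44139447, minus strand: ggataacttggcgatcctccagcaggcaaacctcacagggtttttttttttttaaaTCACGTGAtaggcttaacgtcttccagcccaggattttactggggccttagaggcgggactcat
Glb1, GRCm38.p6 chr9:114400958-114401077, plus strand: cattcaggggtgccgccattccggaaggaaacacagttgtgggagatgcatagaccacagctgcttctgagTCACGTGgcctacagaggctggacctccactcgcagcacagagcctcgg
Naglu, GRCm38.p6 chr11:101069964-101070083, plus strand: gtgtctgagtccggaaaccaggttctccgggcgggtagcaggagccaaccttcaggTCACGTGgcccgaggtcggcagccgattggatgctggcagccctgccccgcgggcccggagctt
Lamp1, GRCm38.p6 chr8:13159041-13159160, plus strand: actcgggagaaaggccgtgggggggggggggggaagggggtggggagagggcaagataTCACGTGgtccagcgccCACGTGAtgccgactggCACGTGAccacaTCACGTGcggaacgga
Counted back from the start site, the matches began at -72 and -46 in Mcoln1, at -132 in Atp6v1a, at -49 in Glb1 and at -74 in Naglu. In Lamp1 they began at -62, -45, -28 and -16.

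The libraries held between 30798377 and 34794617 counts. Levels are given as CPM, the counts of a gene relative to the size of its library, scaled by TMM factors. Cd5l checked the labels: its counts were 45 and 9 in the 5xFAD libraries and 7230, 10680 and 6438 in the Cd5l-transgenic ones. The 8 microglial markers, among them P2ry12, Tmem119 and Cx3cr1, summed to between 24500 and 27800 CPM in every library. Several libraries stood apart in other markers. In 5xFAD replicate 1 the 12 markers of plaque-associated microglia, such as Itgax and Spp1, summed to 15000 CPM, whereas the other libraries held 7732 to 8438 CPM, with all 12 detected. In 5xFAD replicate 3 the 8 choroid plexus and ependymal markers summed to 2817 CPM, against 261.1 to 537.8 CPM elsewhere. In Cd5l-transgenic replicate 2 the 8 oligodendrocyte markers summed to 4239 CPM, against 338.9 to 1077 CPM. The 10 markers of cell dissociation, such as Fos and Jun, summed to 11780 and 11630 CPM in 5xFAD replicates 1 and 3. They summed to 8498, 7620 and 12170 CPM in Cd5l-transgenic replicates 1, 2 and 3. The part of handling in the differences described below was not tested. All members summed to 22820 CPM in 5xFAD replicate 1, to 19870 CPM in 5xFAD replicate 3, and to 20640, 20420 and 20620 CPM in Cd5l-transgenic replicates 1, 2 and 3. The 2 groups overlapped in that sum, because the 5xFAD libraries were the highest and the lowest.

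The highest RNA levels were those of genes of the lumen and the membrane, though the levels of pump and lumen overlapped. Per kilobase of gene length, the highest mean level over the 5 libraries was that of Psap, the precursor of the saposins that help enzymes degrade sphingolipids, at 1493 CPM per kilobase. Lgmn, the lysosomal cysteine protease legumain, stood at 973 CPM per kilobase, Cd68, a heavily glycosylated membrane protein of macrophage lysosomes, at 883, Hexa, the alpha subunit of beta-hexosaminidase, at 865, and Grn, the progranulin gene, at 758. Within the V-ATPase the level per kilobase ran from 143 for the accessory subunit Atp6ap1 and 124 for Atp6v0b down to 9.89 for Atp6v0d2 and 4.61 for Atp6v1h. The hydrolases Glb1, Gaa and Lipa, at 75.9, 70.5 and 32.9 CPM per kilobase, lay within that range. Tfeb itself had 7.85 CPM per kilobase. The summed CPM of the 15 V-ATPase members stood to that of the 8 hydrolases at ratios of 0.394 and 0.411 in 5xFAD replicates 1 and 3, and of 0.392, 0.395 and 0.402 in the Cd5l-transgenic libraries, so the groups overlapped in this ratio too.

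**Figure D1:**
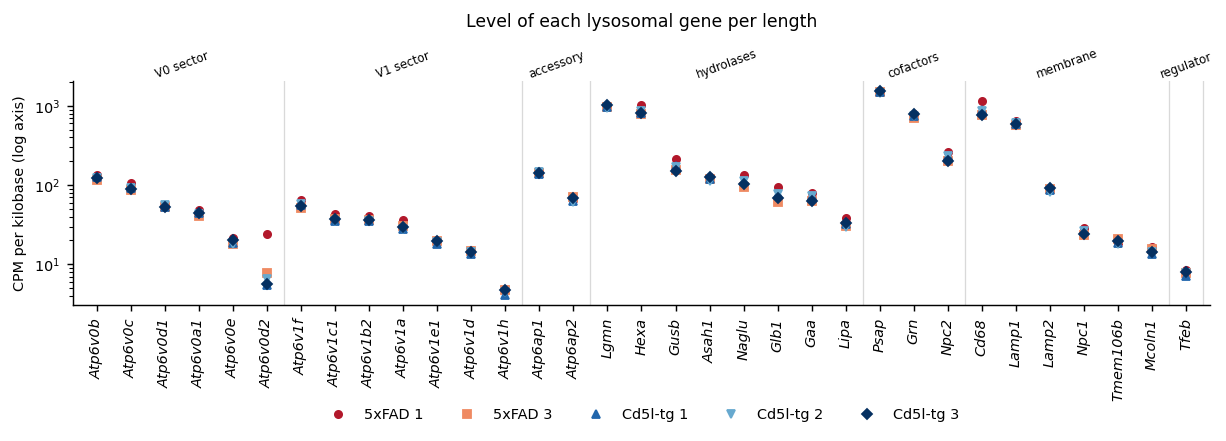
Level of each of the 33 genes per kilobase of gene length (CPM per kilobase, log axis), with 1 point per library (2 of 5xFAD, 3 Cd5l-transgenic, shown as Cd5l-tg) and genes ordered by role and level. The points of a gene lie close together except for Atp6v0d2, whose 5xFAD replicate 1 stands far above the rest, and Psap has the highest mean, 1493 CPM per kilobase.

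None of the 33 members passed the test between the genotypes. In the edgeR quasi-likelihood test 0 of 33 were called higher and 0 lower (adjusted p = 0.995 at the lowest), where 0 of 17724 tested genes (0%) were called higher and 0 (0%) lower. DESeq2 also called 0 members, and 0.0724% of all genes it gave an adjusted p, among them Cd5l (log2 fold change 8.19, DESeq2 adjusted p = 8.2e-19). At an unadjusted p under 0.05 edgeR had 2 members, Atp6v0d2 and Mcoln1, both lower, where 2.63% of all tested genes reached that in either direction. The edgeR test did not call Cd5l (log2 fold change 8.23, adjusted p = 0.448), so a count of 0 in edgeR does not show that the members were equal. Except for Atp6v0d2 the differences were small: the other 32 log2 fold changes lay between -0.21 and 0.012 with standard errors from 0.071 to 0.196. Their 95% intervals all lay between -0.64, the lower bound of Cd68, and 0.43, the upper bound of Glb1.

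Most members leaned the same way by small amounts. With TMM scaling 31 of 33 had a log2 fold change below 0, with a median of -0.059, where 57.3% of all tested genes lay below 0 with a median of -0.027. Of the 6256 tested genes within the members' range of mean CPM, 3909 lay below 0, also with a median of -0.027. With size factors of DESeq2, 27 of 33 members lay below 0, with a median of -0.040, and all genes had a median of -0.0077. The lean changed with the 5xFAD library left out, and 2 such libraries cannot show which of them was unusual. In 28 of the 33 members the highest of the 5 libraries was 5xFAD replicate 1, which holds for 24.1% of all tested genes, and in 15 of the 33 the lowest was the other 5xFAD library, replicate 3. In 15 members all 3 Cd5l-transgenic libraries lay between the 2 of 5xFAD, against 12.6% of all genes. Without 5xFAD replicate 1, 13 of 33 members lay below 0 (51.8% of all genes) and their median was 0.035. Without 5xFAD replicate 3, 32 of 33 did (51.3% of all genes) and the median was -0.15. The markers of plaque-associated microglia were likewise highest in 5xFAD replicate 1, and their part in these differences was not tested. In bulk RNA, fewer cells of a type and less RNA per cell cannot be told apart.

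**Figure D2:**
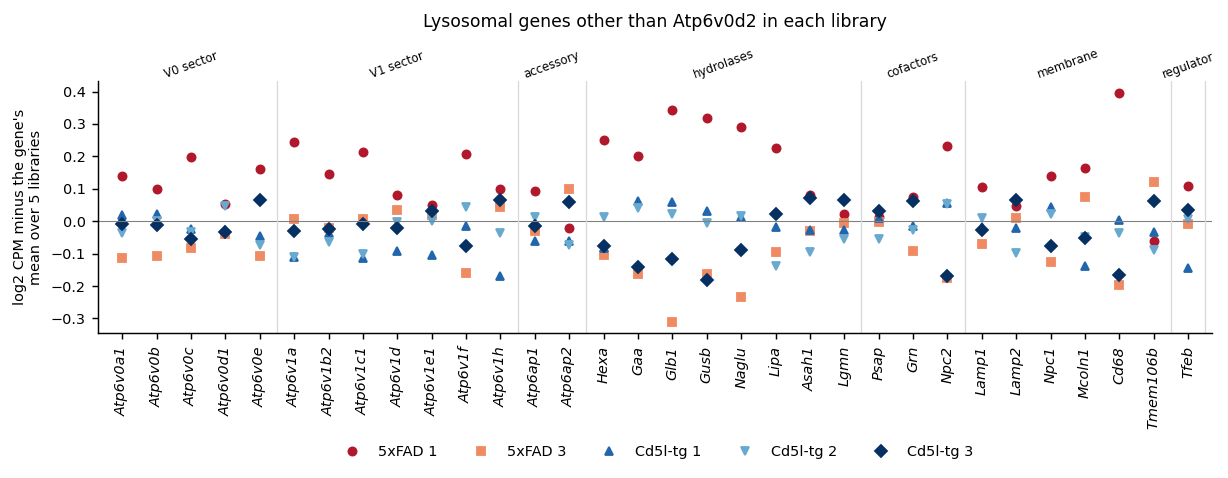
Level of each member in each library as log2 CPM minus the mean of that gene over the 5 libraries, without Atp6v0d2, whose range is larger. The red circles of 5xFAD replicate 1 lie on top for most genes. The orange squares of 5xFAD replicate 3 lie at the bottom for all 5 V0 genes shown and, in the V1 sector, for Atp6v1f. They also lie there for 4 of the 8 hydrolases, 2 of the 3 cofactors and 3 of the 6 membrane proteins.

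In the V0 sector Atp6v0d2 was the member with the largest difference. It encodes a d subunit found in macrophages and osteoclasts (ENSMUSG00000028238, chromosome 4, 19876841 to 19922605, GRCm39), where the widely expressed form of the same subunit is encoded by Atp6v0d1. In 5xFAD replicate 1 Atp6v0d2 stood at 65.6 CPM and in 5xFAD replicate 3 at 20.9 CPM, while Cd5l-transgenic replicates 1, 2 and 3 held 14.96, 17.7 and 15.2 CPM. The Cd5l-transgenic libraries were thus all below both 5xFAD libraries, but 5xFAD replicate 3 lay nearer to them than to its own group. The log2 fold change was -1.43 (SE 0.47, 95% interval -2.62 to -0.24). Without 5xFAD replicate 1 it was -0.39, and without 5xFAD replicate 3 it was -2.04. When 5xFAD replicate 3 and Cd5l-transgenic replicate 2 were left out together, an alternative added after seeing the data, it was -2.11 and passed in edgeR (adjusted p = 8.77e-04), with 5xFAD replicate 1 as the only 5xFAD library.

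Atp6v0d1 did not share that pattern. It stood at 99.9 and 93.7 CPM in the 5xFAD mice and 94.4, 99.3 and 94.0 CPM in the transgenic mice, a log2 fold change of -0.013 (SE 0.073). Per gene length, Atp6v0d2 made up 30.2% of the RNA of both d subunits in 5xFAD replicate 1 (95% exact binomial interval 29.0 to 31.5) and 12.8% (11.9 to 13.7) in 5xFAD replicate 3. In the Cd5l-transgenic libraries it made up 9.47% (8.65 to 10.4), 10.5% (9.71 to 11.4) and 9.63% (8.82 to 10.5), below both 5xFAD libraries. These intervals cover counting error only, not the spread between mice. The mean share was 21.5% ± 12.3 (SD, n = 2) against 9.88% ± 0.577 (SD, n = 3), a two-sided exact permutation p = 0.1, which is the smallest that the 10 splits of these libraries allow.

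**Figure D3:**
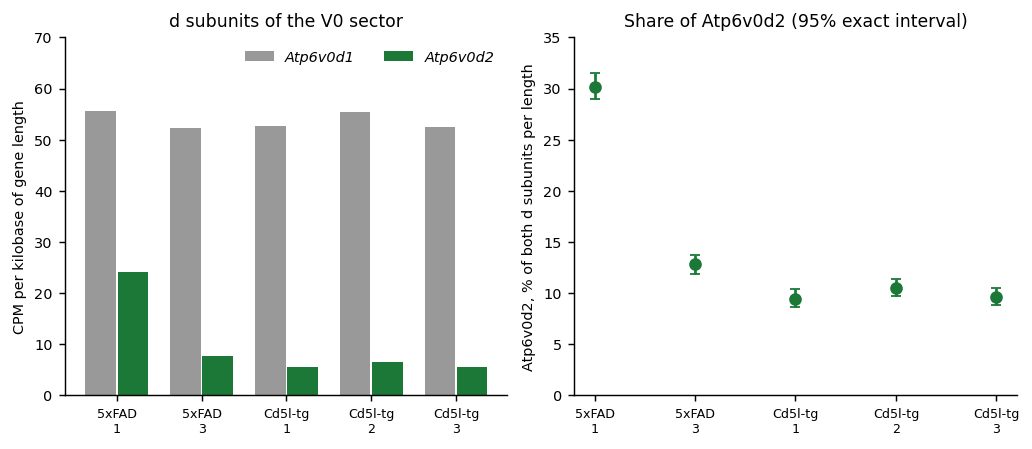
Left, level of Atp6v0d1 (grey) and Atp6v0d2 (green) in each library in CPM per kilobase. Right, share of Atp6v0d2 in the sum of both per length, with 95% exact intervals for counting error: 30.2% in 5xFAD replicate 1 and between 9.47% and 12.8% in the other 4 libraries.

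The other V0 members differed little between the genotypes. Atp6v0c, which encodes the proteolipid of the proton-carrying ring, stood at 360 and 297 CPM in the 5xFAD mice and 309, 307 and 302 CPM in the transgenic mice, inside the 5xFAD range (log2 fold change -0.10, SE 0.10). Atp6v0e, a small membrane subunit, stood at 79.7 and 66.2 CPM against 69.0, 67.7 and 74.6 CPM (log2 fold change -0.050). Atp6v0b, another ring proteolipid and the V0 gene with the highest level per length, stood at 273 and 236 CPM against 258, 255 and 252 CPM (log2 fold change 0.0043, SE 0.089). Atp6v0a1, the large membrane subunit, had a log2 fold change of -0.026. In all 5 V0 members other than Atp6v0d2 the Cd5l-transgenic libraries lay between the 5xFAD libraries.

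The V1 members leaned lower with the transgene. All 7 had a log2 fold change below 0, also with the size factors of DESeq2 and with upper-quartile scaling, and the median was -0.11. Of the 7, 4 were lower in every Cd5l-transgenic library than in either 5xFAD library, where 8.69% of all tested genes were. Atp6v1g1, a stalk subunit of V1 that is not among the members, did not lean that way (log2 fold change 0.017, SE 0.084). It stood at 126.7 and 111.4 CPM in the 5xFAD mice and 121.4, 123.1 and 116.8 CPM in the transgenic mice, inside the 5xFAD range. Atp6v1g2, the other tested V1 subunit outside the members, had a log2 fold change of -0.099 (SE 0.135), with the groups overlapping. Over all 33 members 6 were lower in every Cd5l-transgenic library and 0 were higher, where 8.69% and 7.2% of all tested genes were. None of the 7 V1 members passed (edgeR adjusted p = 0.995 at the lowest). Atp6v1a, the catalytic subunit that binds ATP (ENSMUSG00000052459, chromosome 16, 43905765 to 43960068), stood at 217 and 184 CPM in the 5xFAD mice and 170, 170 and 179 CPM in the transgenic mice. The gap from the lower 5xFAD library to the highest transgenic one was smaller than that between the 5xFAD libraries (log2 fold change -0.21, SE 0.094, 95% interval -0.44 to 0.020). Atp6v1c1, a subunit of the stalk that joins the sectors, stood at 245 and 212 CPM against 195, 197 and 210 CPM (log2 fold change -0.19, SE 0.092). Atp6v1d, part of the central rotor, stood at 69.8 and 67.6 CPM against 61.9, 65.9 and 65.0 CPM (log2 fold change -0.097, SE 0.071). The fourth was Atp6v1b2, which encodes the B subunit of the ATP-splitting head, with a log2 fold change of -0.11. It stood at 214.5 and 191.2 CPM in the 5xFAD mice and 189.1, 185.5 and 190.8 CPM in the transgenic mice. In Atp6v1b2 and Atp6v1c1 the groups thus barely parted, with 191.2 against 190.8 CPM and 211.9 against 209.9 CPM at the edge. Whether these 4 stay without overlap under another scaling was not tested. Atp6v1f, a small rotor subunit and the V1 gene with the highest level per length, overlapped between the groups, at 69.5 and 53.9 CPM against 59.6, 62.1 and 57.2 CPM.

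Among the 33 members 10 kept the sign of their log2 fold change without any 1 library, where 44.3% of all genes did. Of these 10, 6 were V1 members (Atp6v1a, Atp6v1b2, Atp6v1c1, Atp6v1d, Atp6v1e1 and Atp6v1h), and the others were Atp6v0d2, Atp6ap2, Mcoln1 and Tfeb. Without 5xFAD replicate 1 the median of the V1 members was -0.072 and 6 of 7 lay below 0. The accessory subunits, which are needed for assembly of the pump, overlapped between the groups. Atp6ap1 stood at 462 and 424 CPM in the 5xFAD mice and 416, 438 and 429 CPM in the transgenic mice (log2 fold change -0.051), and Atp6ap2 at 168 and 183 CPM against 164, 162 and 178 CPM (-0.064).

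**Figure D4:**
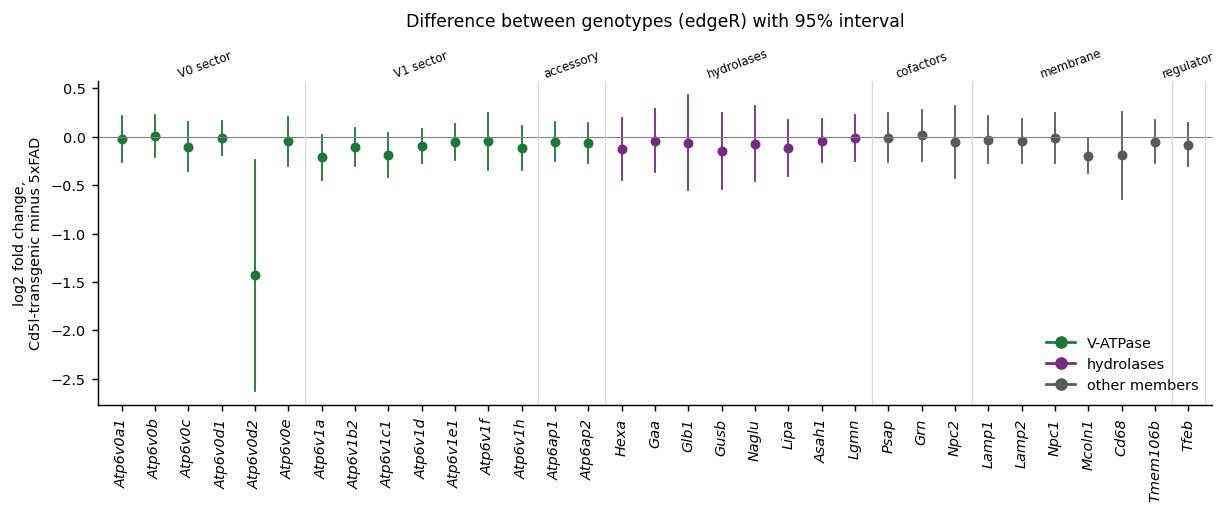
Log2 fold change of each member (Cd5l-transgenic minus 5xFAD, edgeR) with its 95% interval, by role, with the V-ATPase in green and the hydrolases in purple. Only the intervals of Atp6v0d2 and Mcoln1 lie wholly below 0, and neither gene passed after adjustment over all genes.

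The hydrolases also lay below 0. All 8 had a log2 fold change below 0 with TMM scaling, from -0.15 to -0.012 with a median of -0.067, but 7 of 8 with DESeq2 size factors, and 0 of 8 were without overlap between the groups, where 8.69% of all tested genes were lower without overlap. In 7 of the 8 the highest library was 5xFAD replicate 1, as it was in all 7 V1 members, and the difference between the 2 sets of genes was not tested. Hexa stood at 2042 and 1600 CPM in the 5xFAD mice and 1623, 1734 and 1629 CPM in the transgenic mice, inside the 5xFAD range (log2 fold change -0.13, SE 0.13). Gusb, the beta-glucuronidase gene, stood at 976 and 700 CPM against 800, 780 and 690 CPM (log2 fold change -0.15, SE 0.16). Lipa, the lysosomal acid lipase that frees cholesterol from its esters, stood at 260 and 208 CPM against 219, 202 and 226 CPM (log2 fold change -0.12, SE 0.12). Of the other sugar-cleaving enzymes, Glb1 (beta-galactosidase), Naglu (an N-acetylglucosaminidase of heparan sulfate breakdown) and Gaa (acid alpha-glucosidase) had log2 fold changes between -0.071 and -0.040. Asah1, the acid ceramidase, stood at -0.041. Lgmn varied least of these, at 2293 and 2252 CPM against 2218, 2174 and 2367 CPM (log2 fold change -0.012, SE 0.098).

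Set side by side, pump and enzymes did not separate with all 5 libraries. The V-ATPase members had a median of -0.064 and the hydrolases one of -0.067, a difference of 0.0022. They parted when a 5xFAD library was left out. Without 5xFAD replicate 1 the medians were -0.019 for the V-ATPase, with 8 of 15 below 0, and 0.085 for the hydrolases, with 0 of 8 below 0. Without 5xFAD replicate 3 they were -0.15 and -0.28, with 15 of 15 and 8 of 8 below 0. The difference between the medians thus ran from -0.10 to 0.14 with 1 5xFAD library left out, and its sign differed with the 5xFAD mouse left out. By library, the median level of the V-ATPase members relative to their mean over libraries, less that of the hydrolases, was -0.099 and 0.10 on the log2 scale in 5xFAD replicates 1 and 3, and -0.058, -0.040 and 0.068 with the transgene, all within the 5xFAD range.

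**Figure D5:**
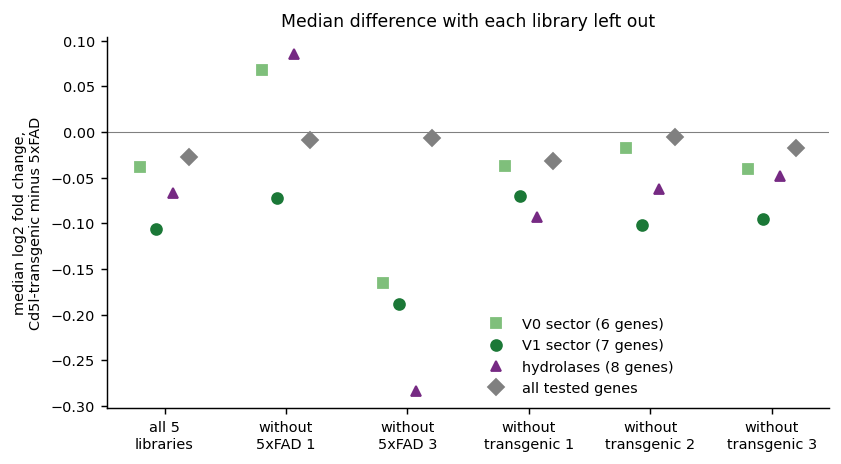
Median log2 fold change (Cd5l-transgenic minus 5xFAD) of the V0, V1 and hydrolase members and of all tested genes, with all 5 libraries and with each library left out. The hydrolase median is 0.085 without 5xFAD replicate 1 and -0.28 without 5xFAD replicate 3, while the V1 median stays below 0 in these 6 fits.

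Among the luminal cofactors Psap and Grn had similar levels in all libraries. Psap stood at 4136 and 4094 CPM in the 5xFAD mice and 4125, 3942 and 4191 CPM in the transgenic mice (log2 fold change -0.010, SE 0.10). Grn stood at 2773 and 2467 CPM against 2602, 2580 and 2745 CPM (log2 fold change 0.012, SE 0.11). Npc2, which carries cholesterol within the lumen, varied more, at 1434 and 1082 CPM against 1270, 1266 and 1087 CPM (log2 fold change -0.059, SE 0.15), with the groups overlapping.

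Among the 6 membrane proteins 1, Mcoln1, was lower without overlap between the groups, where 8.69% of all tested genes were. It encodes the calcium channel TRPML1, through which lysosomal calcium release activates TFEB (ENSMUSG00000004567, chromosome 8, 3550457 to 3565232). It stood at 125 and 117 CPM in the 5xFAD mice and 101.2, 108 and 107 CPM in the transgenic mice. The log2 fold change was -0.20 (SE 0.074, 95% interval -0.38 to -0.019), with an unadjusted edgeR p of 0.0357 and an adjusted p = 0.995. It lay between -0.25 and -0.15 with any 1 library left out, and was -0.15 without 5xFAD replicate 1. Cd68 had a log2 fold change of nearly the same size, -0.19 (SE 0.18), from values that overlapped: 1445 and 957 CPM in the 5xFAD mice and 1101, 1070 and 978 CPM in the transgenic mice. Without 5xFAD replicate 1 that of Cd68 was 0.14. Tmem106b, a membrane protein of late endosomes and lysosomes, was highest in 5xFAD replicate 3, at 127 and 144 CPM in the 5xFAD mice and 130, 125 and 138 CPM in the transgenic mice (log2 fold change -0.054, SE 0.090). Lamp1 and Lamp2, the main glycoproteins of the lysosomal membrane, had log2 fold changes of -0.030 and -0.044, and Npc1, the cholesterol exporter that works with Npc2, one of -0.014.

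Tfeb stood at 48.0 and 44.2 CPM in the 5xFAD mice and 40.2, 44.6 and 45.5 CPM in the transgenic mice, with the groups overlapping (log2 fold change -0.084, SE 0.090). Of the 10 members with TCACGTG in their promoter 9 lay below 0 (median -0.045), as did 16 of the 17 whose promoter did not hold it (median -0.059). Without 5xFAD replicate 1, 8 of the 10 lay above 0 (median 0.077), among them Glb1, Naglu and Lamp1 at 0.30, 0.22 and 0.062, and the other two, Mcoln1 and Atp6v1a, stood at -0.15 and -0.086. Of the 17 others 10 lay above 0 in that fit, and the difference between the 2 sets was not tested.

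Other genes of the same compartment, from lists that hold none of the members, gave 0 calls in edgeR and in DESeq2. Of 10 further V-ATPase subunits 5 were abundant enough to test, 3 of them above 0 and 2 below, with a median of 0.017. Tcirg1, the macrophage and osteoclast form of the a subunit, stood at 556 and 520 CPM in the 5xFAD mice and 485, 464 and 531 CPM in the transgenic mice. Atp6v0e2, a second e subunit, stood at 5.22 and 6.52 CPM against 8.47, 19.4 and 4.90 CPM, highest in the library with the most oligodendrocyte marker RNA, whose part in that value was not tested. Of 25 further hydrolases 18 lay below 0 (median -0.037), among them the sialidase Neu1 at -0.15 and the alpha-galactosidase Gla at -0.38, where 5xFAD replicate 1 held 46.7 CPM and the other 4 libraries 27.8 to 29.5 CPM. Of 20 further membrane and trafficking genes 17 lay below 0 (median -0.077). Tpcn2, a cation channel of the lysosomal membrane, had the smallest unadjusted p of these (log2 fold change -0.21, SE 0.070). It stood at 63.8 and 60.0 CPM against 53.3, 53.8 and 54.0 CPM, lower without overlap. The sorting receptor Sort1 was higher without overlap, at 307 and 308 CPM against 334, 351 and 324 CPM (log2 fold change 0.13). Of the 20, 1 was higher and 2 were lower without overlap, where 7.2% and 8.69% of all tested genes were.

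Of 17 genes of nutrient sensing and lysosomal transcription 14 lay below 0 with a median of -0.091, and 1 reached an unadjusted p under 0.05. That gene was Rragd, a Rag GTPase that brings the growth kinase mTOR to the lysosome and a known TFEB target (chromosome 4, 32983037 to 33022180). It stood at 52.6 and 42.6 CPM in the 5xFAD mice and 33, 37.7 and 32.6 CPM in the transgenic mice, so that all 3 transgenic libraries were lower than both of 5xFAD (log2 fold change -0.46, SE 0.12, edgeR adjusted p = 0.995). Lamtor3, part of the scaffold that holds the Rag GTPases on the lysosome, stood at -0.19 (SE 0.090) and was also lower without overlap. Of the 17, 2 were lower and 0 higher without overlap, against 8.69% and 7.2% of all tested genes. Tfe3 and Mitf, relatives of Tfeb, stood at -0.012 and -0.13.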

How the data were processed

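The authors deposited raw counts for each Ensembl gene, whole numbers in 1 column per library. The gene length per kilobase used here comes from the same table, which does not say how transcripts were merged. Build GRCm39 (mm39) was used, per the submitters' processing notes. Not given in the sources used here are the aligner, the counter and whether counting used strand, so overlapping genes may share reads. Of the members, Npc1, Glb1, Atp6v1e1 and Atp6v0a1 overlap another gene that held at least 1% of their counts (10.1%, 7.01%, 4.66% and 3.27% for the largest, Rmc1, Tmppe, Slc25a18 and a long noncoding RNA). The column of Cd5l-transgenic replicate 3 had its letter pairs in the opposite order and was matched by letters and number.

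Genes were filtered with filterByExpr (17724 kept, all 33 members among them), scaled by TMM (factors 0.952 to 1.02) and tested by genotype alone with the robust quasi-likelihood test of edgeR 4.0.16 in R 4.3.3, with Benjamini-Hochberg adjustment over all tested genes and a threshold of 0.05. Standard errors and 95% intervals come from the fold change and its F statistic. The edgeR fit used the newer quasi-dispersion estimate (legacy set to false) and DESeq2 all genes with a count, both set after first results with the default estimate and with the filtered genes had been seen. DESeq2 1.42.0 and limma 3.58.1 served as alternatives, and scripts were tested on simulated counts of 17724 genes. There edgeR called 34 of 100 genes changed 2-fold, 92 of 100 changed 8-fold and 22 unchanged genes. DESeq2 called 52 of 100, 89 of 100 and 75 unchanged genes. A single library's 3 counts correspond to between 0.0862 and 0.0974 CPM. The labels do not say that mice came from separate litters, so p-values measure the spread between these libraries. The members and gene lists were chosen with earlier results of these data known, so they carry no list-wide p-value. In each role the 3 members with the smallest unadjusted p and the one with the highest level per length were given in full, other lists named up to 2 genes by smallest unadjusted p, and further genes were named after their values were seen.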

Additional observations from a re-analysis of the deposited data

How the results depend on the processing

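No member was called under DESeq2 size factors, upper-quartile factors, the DESeq2 Wald test, limma-voom with sample weights, a filter of 5 CPM in 2 libraries, no filter at all, or with any 1 library left out. The Wald test of DESeq2 called 12 genes higher and 2 lower over all genes, and leaving out 1 library gave between 0 and 10 genes lower in edgeR, the 10 without 5xFAD replicate 1. Leaving out both 5xFAD replicate 3 and Cd5l-transgenic replicate 2 was an alternative added after seeing the data. It let edgeR call 13 genes higher and 28 lower, 1 of them a member, Atp6v0d2. In it 5xFAD replicate 1 is the only 5xFAD library and is assumed to vary like the others. Both the quasi-dispersion setting of edgeR and the genes given to DESeq2 were changed after first results were seen. Under the first settings edgeR again called 0 genes, with 475 at an unadjusted p under 0.05 in place of 467 and Cd5l at an adjusted p = 0.765, and DESeq2 on the filtered genes called 9 higher and 2 lower, no member in either. The median of the members lay between -0.15 and 0.035 with 1 library left out and between -0.060 and -0.024 under the other tools, scalings and filters, and the difference between V-ATPase and hydrolase medians between -0.050 and 0.0037 under the latter. With the filter of 5 CPM, 25 of 33 members lay below 0, where the median of all genes was 0.0051. The replicate number as a block gave 0 calls, a member median of -0.066 and a difference of -0.0085. The labels do not say what the number stands for, so same-numbered libraries were not taken as pairs. Their deviations from the group means had correlations of 0.129 and -0.24. These values cannot decide on pairing, because 2 5xFAD libraries always deviate from their mean in opposite directions. Leaving out 1 library moved the difference in the share of Atp6v0d2 from -11.7 percentage points to between -20.3 and -2.93, and without length correction it was -14.7. With the spread between these libraries the edgeR test did not call Cd5l, which the Wald test of DESeq2 did (adjusted p = 8.2e-19). Neither of these tests called a member with all 5 libraries.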
